A study of Mus musculus with 6 samples.

Results

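Chromosome 12 of the mouse was described here from 46.75 to 85 Mb (GRCm38), by the genes that start in this interval and have a probe set of their own on the liver arrays. Each probe set gives 1 signal from several short oligonucleotides, and the brightest probe set over all arrays stood for each gene. This gave 211 genes of 18033, of which 188 are protein coding and 23 are long non-coding RNAs. Another 11 genes of the interval (Snx6, Atp6v1d, L3hypdh, Rad51b, Slc10a1 and 6 Acot genes) were left out by the choice of members. The first member by position was 3110039M20Rik and the last was Ylpm1.

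The arrays compared A/J mice with A/J-12SM mice, a consomic strain that carries chromosome 12 of the SM/J strain on the A/J background. Both groups were male and were given the high-fat diet for 7 weeks, from 6 to 13 weeks of age, with a fast of 4 hours before the tissue was taken. Each strain had 3 arrays of liver RNA, and each array held RNA pooled from 3 mice, so the spread between arrays is that between pools. Fl1sa, a locus for fatty liver, was mapped to the proximal part of this chromosome. By the limits given, the congenic strains R2 and R3 carry SM/J DNA only before 46.75 Mb. The interval described here is thus of SM/J origin in A/J-12SM mice and, by these limits, in neither congenic strain. The paper also marks some regions of the chromosome as unclear in origin.

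A consomic strain differs from its recipient strain at every variant of 1 chromosome. A variant in or near a gene can alter the transcript of that gene itself, which is called regulation in cis, and genes elsewhere then respond in trans. On an oligonucleotide array, a variant under a probe can also change the signal without any change in transcript. Liver genes of this interval include enzymes of folate, glycogen, retinoid and valine metabolism, subunits of the proteasome and the ribosome, and the hypoxia factor Hif1a. The SM/J sequence was not analysed here, and the part of sequence differences under the probes was not tested.

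The trimmed mean signal of the arrays ranged from 201 to 213 for the A/J strain and from 171 to 186 for A/J-12SM, so the log2 signals were brought to a common distribution. All levels below are quantile-normalized log2 signals, and all differences are A/J-12SM minus A/J on this scale. The 9 hepatocyte markers measured were bright, at mean log2 signals from 11.59 to 14.56, against a median brightness of all probe sets of 5.33. Of 4 adipocyte markers Adipoq, Cidec and Lep lay below this median, while Fabp4 read 8.21 in A/J and 8.32 in A/J-12SM. Of 5 exocrine pancreas markers Cpa1, Ctrb1 and Prss2 lay below it, while Cela1 read 11.63 and 11.67 and Cela2a 5.32 and 5.50. Between strains, 5 hepatocyte markers had higher and 4 lower values in A/J-12SM (median 0.01), from -0.03 to 0.81 for Pck1, with Cps1 at 0.28. The hepatocyte sums were 123000 to 128000 in A/J-12SM against 118000 to 122000 in A/J. The 10 macrophage markers all had lower values in A/J-12SM liver, with a median difference of -0.27 and summed signals of 5640 to 6740 against 6310 to 7910 in A/J. Of the 10 endothelial markers 6 had higher and 4 lower values (median 0.04), and their summed signals were 6770 to 7190 in A/J-12SM against 6160 to 6320 in A/J. Fcgr2b stood at 0.37 and Lyve1 at -0.45. Of 10 stellate cell markers 9 had higher values, but the median was only 0.04. Their summed signals were 6000 to 6640 in A/J-12SM against 5310 to 5980 in A/J. No marker was called, and the part of cell composition in the differences below was not tested. Fewer cells of a type and less RNA per cell cannot be told apart in bulk liver.

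No member passed the test between strains (limma, adjusted p under 0.05 over all probe sets), against 0.0665% of all genes (12 of 18033). The lowest adjusted p was 0.0643, for Dhrs7. The absence of calls follows in part from the choice of members, since 2 of the 11 genes left out were called. At an unadjusted p under 0.05, 30 members differed (14.2%), 17 with higher and 13 with lower signal in A/J-12SM liver. Over all genes these shares were 6.81%, 3.39% higher and 3.42% lower. For 33 members (15.6%) every value of 1 strain exceeded all values of the other, without overlap, against 12.3% of all genes. Of these, 18 were higher in A/J-12SM, where all genes gave 5.97%, and 15 were lower, where all genes gave 6.36%. The median difference was 0.05 over the members and -0.01 over all genes, and 120 members had higher and 91 lower values.

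The spread between arrays was wider for dim probe sets. The median pooled SD within strains was 0.21 for the brighter probe sets, at or above the median of all, and 0.86 for the dimmer ones. Past the limits of 1.68-fold and 0.595-fold, close to those the study used for its candidates, lay 31 members (14.7%), against 13.5% of all genes, and 27 of the 31 were dim. Among the 133 brighter members only Galnt16, Sipa1l1, Lin52 and Rdh11 lay past them (3.01%), against 1.48% of brighter genes. Brightness was the mean over all 6 arrays, so a strain difference can itself move a gene across the median of 5.33. Lin52 (means 5.23 in A/J and 6.03 in A/J-12SM), Akap5 (5.17 and 5.70) and Map3k9 (5.27 and 5.49) passed only through A/J-12SM. Dcaf4, chosen after its values were seen, fell below it through A/J-12SM (5.88 and 4.33). All genes were filtered in the same way. Brighter members differed at an unadjusted p under 0.05 in 24 cases (18.0%), against 7.98% of brighter genes, and their arrays did not overlap in 27 (20.3%), against 14.0%. The share at this p was 17.5% for brighter genes of chromosome 12 before the interval and 17.7% for those beyond it, and 7.59% for brighter genes of the other chromosomes. The interval therefore lay close to the rest of the SM/J chromosome on this measure.

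**Figure D1:**
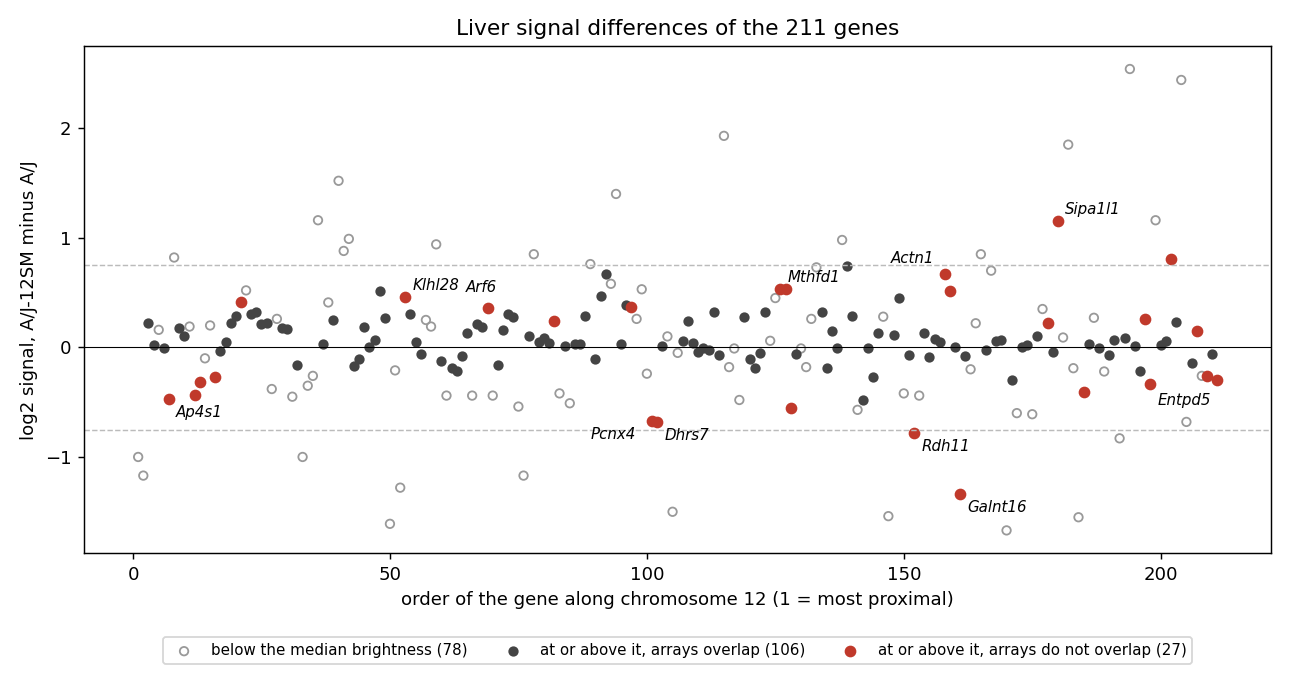
The log2 signal difference (A/J-12SM minus A/J, vertical axis) of each of the 211 genes is plotted by its order along chromosome 12. Open circles are the 78 genes below the median brightness, filled circles the 133 at or above it, in red for the 27 whose arrays do not overlap. Dashed lines mark 0.75 either way. Most points outside these lines are open circles, and the red points at the proximal end lie below 0, those that follow lie above it up to 70 Mb, and both signs occur beyond.

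The promoters of the members with the lowest p in each direction, Dhrs7 and Mthfd1, and of Entpd5, which 5 probe sets gave lower, are shown as the reference sequence before the start of these genes. They are RefSeq reference sequence (GRCm38.p6), not that of A/J or SM/J, and hold the 250 bases before a transcript start of the promoter table. For Mthfd1 this window lies inside the annotated gene, which begins at 76254406. Dhrs7 lies on the minus strand (promoter chr12:72664829-72665078), Mthfd1 on the plus strand (chr12:76254982-76255231) and Entpd5 on the minus strand (chr12:84409030-84409279). All are written 5′ to 3′ along the gene, with capitals for a GC box (GGGCGG, or CCGCCC on the other strand) or a CCAAT box (CCAAT, or ATTGG on the other strand).
Dhrs7: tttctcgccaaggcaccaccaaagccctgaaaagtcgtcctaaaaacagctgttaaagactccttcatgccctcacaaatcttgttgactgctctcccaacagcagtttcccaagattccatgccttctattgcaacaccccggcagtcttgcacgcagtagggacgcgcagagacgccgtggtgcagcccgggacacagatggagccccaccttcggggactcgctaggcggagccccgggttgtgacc
Mthfd1: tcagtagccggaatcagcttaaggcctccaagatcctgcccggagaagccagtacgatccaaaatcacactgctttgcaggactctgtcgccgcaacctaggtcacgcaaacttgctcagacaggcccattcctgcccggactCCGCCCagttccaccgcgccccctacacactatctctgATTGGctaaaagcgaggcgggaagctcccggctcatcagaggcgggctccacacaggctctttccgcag
Entpd5: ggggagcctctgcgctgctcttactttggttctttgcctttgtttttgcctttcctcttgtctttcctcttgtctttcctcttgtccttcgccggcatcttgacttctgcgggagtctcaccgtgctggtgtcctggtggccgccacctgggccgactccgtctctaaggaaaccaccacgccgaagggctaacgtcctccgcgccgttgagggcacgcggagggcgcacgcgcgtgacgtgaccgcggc
The Mthfd1 window held 1 GC box and 1 CCAAT box, and neither run of letters occurs in the other windows. Of 32851 promoter windows of this length, 32.7% held a GC box and 33.8% a CCAAT box. The table had 218 windows for 182 of the members, of which 45.0% and 36.7% held them. These matches are a description of letters, and no binding was measured.

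Among metabolic enzymes and transporters, 25 genes of the list were measured, and 10 had higher and 15 lower values (median -0.04). None was called, while 2 were higher and 4 lower at an unadjusted p under 0.05. Over all genes 3.39% were higher and 3.42% lower at this p, and over all members 8.06% and 6.16%. Dhrs7, a short-chain dehydrogenase of the endoplasmic reticulum, read 9.74, 9.69 and 9.87 in A/J against 9.19, 8.98 and 9.09 in A/J-12SM liver. All A/J arrays thus lay above all A/J-12SM arrays. The difference was -0.68 ± 0.10 (SE), or 1.60-fold more in A/J, with an adjusted p of 0.0643 (limma). On the deposited values without normalization it was -0.90 with an adjusted p of 0.01, the only setting that called a member. Dhrs7 had 3 probe sets, and a dimmer one gave 0.09 ± 0.43. The mean over all 3 was 0.11, opposite in sign to the brightest set, so the remaining set also lay above 0. The lower signal in A/J-12SM thus rests on 1 probe set.

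Mthfd1, the trifunctional cytosolic enzyme of folate one-carbon metabolism, read 11.39, 11.26 and 11.25 in A/J against 11.80, 11.74 and 11.94 in A/J-12SM. The strains did not overlap, and the difference was 0.53 ± 0.09 (1.44-fold, adjusted p = 0.136, limma). Its other probe sets gave 0.42 ± 0.08 and 0.67 ± 0.23, the same direction in all. Of 15 genes of the folate pathway measured over the whole genome, Mthfd1 among them, 5 had higher and 10 lower values (median -0.06), Mthfd1 alone was at an unadjusted p under 0.05, and Gldc of the glycine cleavage system stood at -0.24 ± 0.12.

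Entpd5, a nucleoside diphosphatase that serves glycoprotein folding in the endoplasmic reticulum, read 11.33, 11.31 and 11.35 in A/J against 10.98, 11.00 and 11.01 in A/J-12SM. The spread within a strain was small beside the gap, which was -0.33 ± 0.07 (adjusted p = 0.392, limma). The other bright probe sets gave -0.37, -0.35, -0.49 and -0.25, and only the last of these overlapped between strains. A dim probe set of the gene gave 0.72 ± 0.40.

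Rdh11, a microsomal retinal reductase, read 9.45, 9.24 and 8.98 in A/J against 8.93, 8.40 and 8.00 in A/J-12SM. The lowest A/J and the highest A/J-12SM array were nearly level, and the difference was -0.78 ± 0.21 (adjusted p = 0.569, limma). A second probe set gave -0.70 ± 0.28, and its arrays overlapped. Galnt16, of the family that starts mucin-type O-glycans, read 7.03, 6.48 and 6.53 against 5.85, 4.37 and 5.80. It had the most negative difference of the brighter members, -1.34 ± 0.39 (adjusted p = 0.606, limma), with 1 low A/J-12SM array and no other probe set.

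Pygl, the liver glycogen phosphorylase, was among the brightest enzymes, at 12.33, 12.19 and 12.29 in A/J against 12.57, 12.37 and 12.59 in A/J-12SM. Its difference was small, 0.24 ± 0.09 (adjusted p = 0.751, limma), although the arrays did not overlap. Coq6, of ubiquinone synthesis, stood at 0.26 ± 0.15. Aldh6a1, the mitochondrial methylmalonate semialdehyde dehydrogenase of valine breakdown, was the brightest enzyme, at means of 12.77 and 12.83, and its arrays overlapped. Of 18 genes of branched-chain amino acid breakdown 7 had higher and 11 lower values (median -0.04), and none was at an unadjusted p under 0.05.

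**Figure D2:**
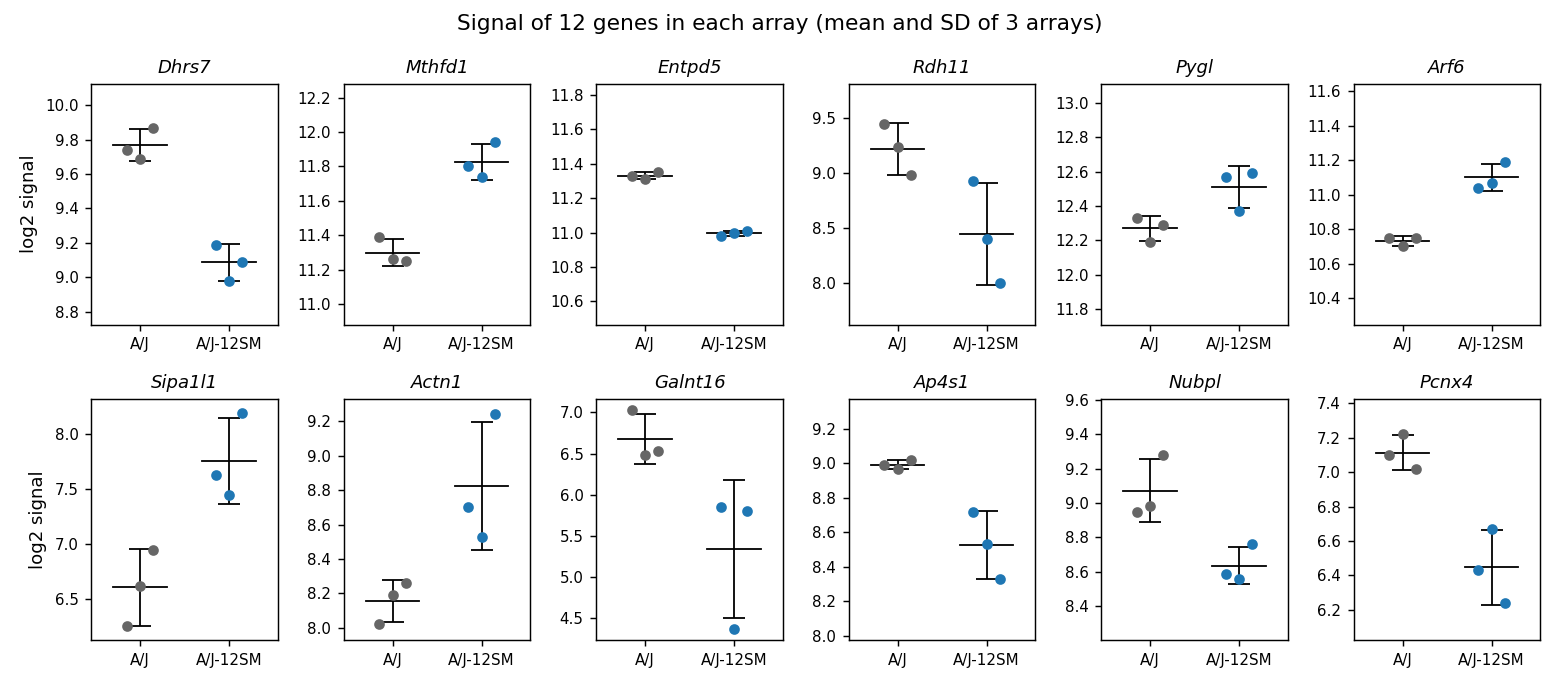
Quantile-normalized log2 signal of 12 genes in each of the 3 A/J (grey) and 3 A/J-12SM (blue) arrays, with the mean and SD of each strain as lines and each panel on a scale of its own. The arrays of the strains do not overlap in any panel, with the narrowest gaps for Rdh11 and Pygl.

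Of 11 mitochondrial proteins 6 had higher and 5 lower values (median 0.02). Nubpl, which delivers iron-sulphur clusters to complex I, read 8.95, 8.98 and 9.28 in A/J against 8.59, 8.56 and 8.76 in A/J-12SM (-0.43 ± 0.12, adjusted p = 0.572, limma). Cox16, an assembly factor of cytochrome c oxidase, stood at -0.30 ± 0.13 with overlapping arrays. Synj2bp, of the outer membrane, and Exd2 were at 0.02 and 0.00. Isca2, another iron-sulphur assembly factor chosen after its values were seen, was at 0.15 without overlap, and between -0.06 and 0.18 over other settings.

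Secretory and membrane traffic genes counted 12 with higher and 6 with lower values of 18 (median 0.04). Ap4s1, the small subunit of adaptor complex AP-4, read 8.99, 8.97 and 9.02 in A/J against 8.72, 8.53 and 8.33 in A/J-12SM. The difference of -0.47 ± 0.12 (adjusted p = 0.469, limma) was wider than the spread in either strain. Zfyve1, which marks sites of autophagosome formation, was at -0.41 ± 0.12, but its second probe set gave 0.00. Mia2, of the export of large cargo from the endoplasmic reticulum, was at 0.51 ± 0.20 with overlapping arrays, and Sec23a, of the COPII coat, at -0.11 ± 0.08. Rab15 was at 0.74 ± 0.50, within the spread of its own arrays.

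Arf6, a small GTPase of endocytic traffic, read 10.75, 10.70 and 10.75 in A/J against 11.04, 11.07 and 11.19 in A/J-12SM by its brightest probe set (0.36 ± 0.08, adjusted p = 0.392, limma). Another probe set of the gene read 9.02, 8.92 and 8.67 against 8.00, 7.86 and 8.51, which is -0.74 ± 0.17 and the opposite direction. Both separated the strains. The remaining sets gave 0.04 and -0.61. Jkamp, an endoplasmic reticulum protein tied to protein degradation, was at 0.37 ± 0.11 by its brightest set and at -0.01, 0.18 and -0.64 by the others.

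Among protein turnover genes 8 of 12 had higher values (median 0.20). Dcaf5, a substrate receptor of a cullin ubiquitin ligase, read 6.80, 7.01 and 6.96 against 7.29, 7.48 and 7.53 (0.51 ± 0.15, adjusted p = 0.60, limma). Its other probe sets gave 1.48, 0.27, 0.14 and -0.03. Arel1, an E3 ligase, was lower by both of its probe sets, at -0.26 and -0.36, without overlap. The largest difference of the list was that of Dcaf4, which was below the median brightness and chosen after its values were seen. Its only probe set read 6.01, 6.03 and 5.59 in A/J against 4.75, 4.51 and 3.74 in A/J-12SM, without overlap (-1.55 ± 0.38, adjusted p = 0.45, limma). The proteasome subunits Psma3 and Psma6 were bright and stood at 0.03 ± 0.09 and 0.21 ± 0.15. G2e3 was at 0.22 ± 0.21 by its brightest set, whose arrays overlapped. Another bright set of G2e3 read 5.97, 6.19 and 6.01 in A/J against 5.57, 5.25 and 5.38 in A/J-12SM. That is -0.66 ± 0.25, the opposite direction, without overlap. A dim set gave -0.62 ± 0.46.

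The 11 genes of the ribosome, translation and RNA processing had the narrowest range of the role lists, with brighter members between -0.30 and 0.24 and none at an unadjusted p under 0.05. Rps29 was the brightest member named, at 14.02 ± 0.06 and 13.91 ± 0.07 (SD, n = 3). Srsf5, a splicing factor, was at 0.06 and Trmt5, a tRNA methyltransferase, at 0.24 ± 0.20. Ylpm1 was at -0.30 ± 0.17 without overlap.

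Among 26 transcription factors and chromatin genes, 14 had higher and 12 lower values (median 0.06). Lin52, a subunit of the DREAM complex, read 5.03, 5.20 and 5.45 in A/J against 6.08, 6.10 and 5.92 in A/J-12SM (0.81 ± 0.26, adjusted p = 0.666, limma), and its second set gave 0.70 ± 0.39. Zbtb25 was at -0.55 ± 0.25 without overlap. Churc1 was at -0.01 and Mnat1, of the CDK-activating kinase, at 0.06.

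Hif1a, the oxygen-regulated subunit of the hypoxia factor, read 9.49, 9.43 and 9.80 in A/J against 9.90, 9.60 and 10.18 in A/J-12SM. The arrays overlapped, the difference was 0.32 ± 0.15 (adjusted p = 0.816, limma), and its other bright sets gave 0.14 and -0.26. Egln3, a prolyl hydroxylase that marks the HIF subunits for degradation and is itself a member, was at -0.27 ± 0.14 without overlap. Of 20 HIF target genes over the whole genome, Egln3 among them, 6 had higher and 14 lower values (median -0.09). Ldha was at -0.26 ± 0.11, Vegfa at -0.01 and Slc2a1 at 0.20, and none was called.

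Signalling genes had 19 with higher and 9 with lower values of 28 (median 0.11). Sipa1l1, a GTPase-activating protein for Rap, had the largest positive difference among brighter members. It read 6.25, 6.62 and 6.95 in A/J against 7.63, 7.45 and 8.20 in A/J-12SM (1.15 ± 0.24, 2.23-fold, adjusted p = 0.317, limma). Its other bright probe set gave 0.39 ± 0.18, also without overlap, and dim sets gave 0.21 and 0.09.

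Arhgap5 was at -0.32 ± 0.12 and Akap5, a kinase anchor, at 0.53 ± 0.29, both without overlap, as was Map3k9 at 0.22, chosen after its values were seen. Over other settings Map3k9 ranged from -0.32 to 0.29 and reversed in 2 of 15. Dact1, of Wnt signalling, was at 0.67 ± 0.26 with overlapping arrays. Nfkbia, the inhibitor of NF-kB, was at 0.22 ± 0.12, and the phosphatase Ppm1a was even, at 10.33 ± 0.01 and 10.34 ± 0.06 (SD, n = 3).

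The paper lists Prkd1, protein kinase D1, as a candidate from its earlier liver arrays, but not among its final candidates. Prkd1 lay below the median brightness. It read 4.87, 3.29 and 4.60 in A/J against 1.34, 3.57 and 4.34 in A/J-12SM, and its arrays overlapped (-1.17 ± 0.84, adjusted p = 0.865, limma). Leaving out 1 array moved the difference between -0.30, without A/J-12SM replicate 1, and -1.80, without A/J-12SM replicate 3. A second dim probe set gave -1.36 ± 0.55 without overlap, with an adjusted p of 0.789.

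Cytoskeleton and adhesion genes counted 13 of 17 with higher values (median 0.15). Actn1, an actin crosslinker, read 8.02, 8.19 and 8.26 in A/J against 8.70, 8.53 and 9.24 in A/J-12SM (0.67 ± 0.17, adjusted p = 0.505, limma), with dim sets at 0.06 and 0.35. Cfl2 was at 0.22 ± 0.10, Syne2 of the nuclear envelope at 0.32 ± 0.23 and Smoc1, a secreted calcium-binding protein, at 0.07 ± 0.12. The 7 genes of DNA repair and cell division had a median of 0.13, with Lin52 the only one whose brightest set did not overlap.

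The 12 genes used mainly in brain or other organs were all dim, and none was at an unadjusted p under 0.05. Pax9 and Trim9 were the brightest of them, at 1.16 ± 0.69 and -0.42 ± 0.49. The 68 members in no list included 26 brighter ones. Pcnx4 read 7.10, 7.22 and 7.02 against 6.43, 6.67 and 6.24 (-0.67 ± 0.18, adjusted p = 0.519, limma), but its other set gave 0.05. Klhl28 was at 0.46 ± 0.14, with other bright sets at 0.19 and 0.16, and 2700097O09Rik at 0.41 ± 0.12.

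**Figure D3:**
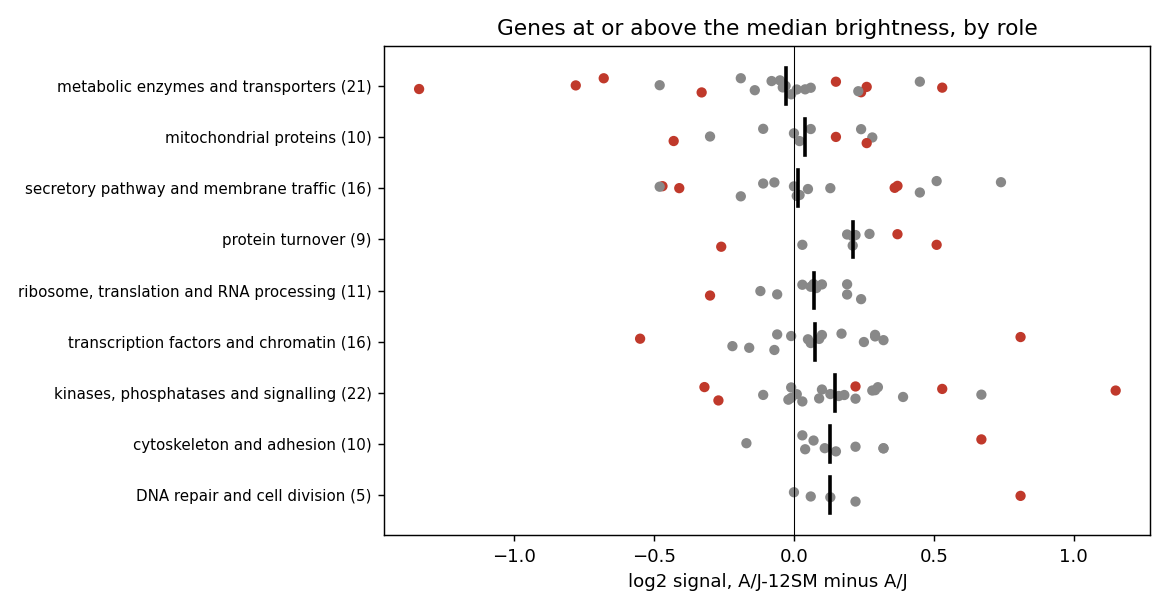
The log2 signal difference (A/J-12SM minus A/J, horizontal axis) of members at or above the median brightness, by role list, with the number of such members in parentheses. Red points are members whose arrays do not overlap and black bars are list medians, which lie between -0.03 and 0.21.

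Probe sets of 1 gene often disagreed. The 211 members had 436 probe sets, of which none was called and 55 (12.6%) were at an unadjusted p under 0.05, against 6.23% of all 45037 probe sets. Of 66 members with several bright sets, 33 had all in 1 direction, beside 47.9% of all such genes. Arel1 and Sipa1l1 alone had every bright set apart between strains in 1 direction (3.03%, against 2.07% of all such genes). Arf6 alone had sets apart in both (1.52%, against 0.84%), so both shares were near the background. Daam1, an actin nucleator of Wnt signalling chosen after its values were seen, was even by its brightest set (0.03 ± 0.09). Another of its sets read 7.77, 7.79 and 8.02 in A/J against 7.14, 6.91 and 6.88 in A/J-12SM, which is -0.89 ± 0.15 with an adjusted p of 0.135 (limma). Scfd1, of vesicle fusion at the Golgi and chosen in the same way, was at 0.02 ± 0.10 by its brightest set. A dimmer set read 6.89, 6.71 and 6.82 against 5.74, 4.95 and 5.47 (-1.42 ± 0.25, adjusted p = 0.198, limma). The positions of the probes within these transcripts were not analysed here.

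**Figure D4:**
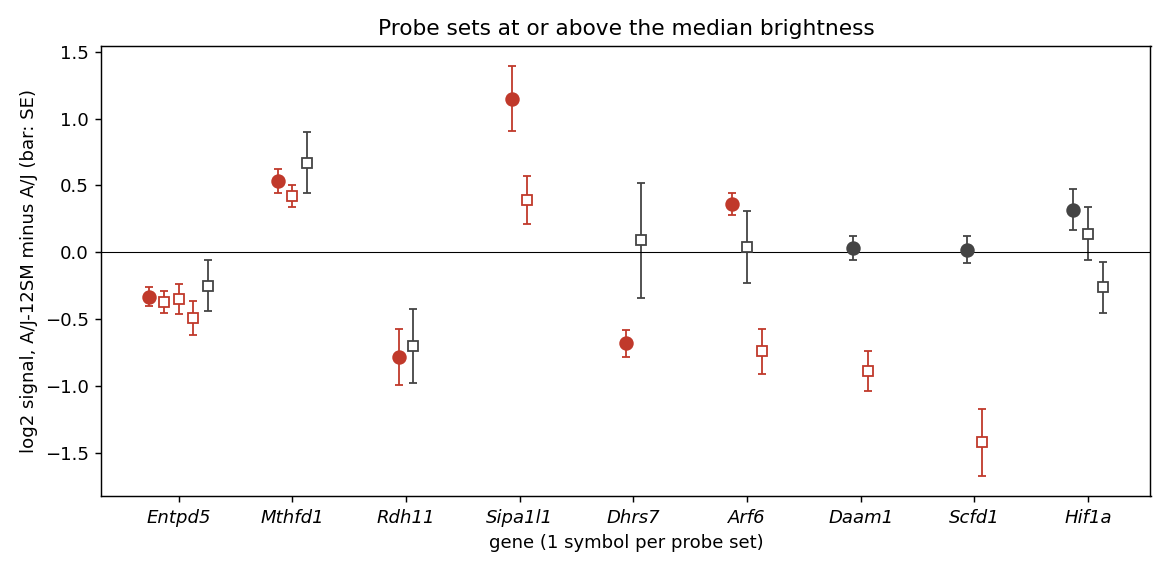
The log2 signal difference with its SE (A/J-12SM minus A/J, vertical axis) for the brighter probe sets of 9 genes. Filled circles are the brightest set of a gene, open squares its others, and red marks sets whose arrays do not overlap. The sets of Entpd5, Mthfd1, Rdh11 and Sipa1l1 lie on 1 side of 0, while those of Dhrs7, Arf6 and Hif1a lie on both and Daam1 and Scfd1 have a second set far below the first.

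By position, the stretch from 46.75 to 53.06 Mb is the part of the mapped Fl1sa locus beyond the limits given for R2 and R3. It held 14 members from 3110039M20Rik to Akap6, 8 of them brighter. Ap4s1, Nubpl and Arhgap5 of these were lower at an unadjusted p under 0.05 and none was higher, with a median over the brighter members of 0.01. In the stretch from 55 to 60 Mb 17 brighter members had a median of 0.19, and 3 were higher and none lower at this p. The stretch from 80 to 85 Mb held 56 members, 36 of them brighter, with 4 higher and 5 lower at this p. It spanned differences from -1.34 for Galnt16 to 1.15 for Sipa1l1. At this p were 7.98% of all brighter genes and 18.0% of the brighter members of the whole interval. The stretches hold few genes each, and they were described and not tested against each other.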

How the data were processed

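Liver RNA of 3 A/J and 3 A/J-12SM pools was measured on one-colour Affymetrix arrays. The authors deposited intensity values on a linear scale, 1 per probe set and array, and the submitters' processing notes name MAS5 for them. The scaling target was not given in the sources used here. Array levels differed between strains, so log2 signals were quantile-normalized, which removes any true overall difference. The strain difference was fitted without covariates by lmFit and eBayes with a trend (limma 3.58.1, R 4.3.3). The fit covered 45037 probe sets and excluded 64 controls, with Benjamini-Hochberg adjustment over all of them. Gene names came from the platform annotation, updated and placed through GRCm38.p6 RefSeq genes, which matched 34742 of 34945 probe sets with 1 gene name. Probe sets with several names (932) or none (9160) named no gene.

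Named genes were Prkd1, brighter members whose arrays did not overlap (at most the 24 with the largest difference), in each role list up to 2 of the brightest members and up to 2 with the largest difference among those at or above the median brightness, and the first and last member. The role lists were those of 10 functions. The members, lists and tests were chosen with earlier results of these data known. An exact permutation test of 3 arrays against 3 cannot go below 0.1, so none is given. The limma step was checked on simulated data. The number of arrays limits the precision. Plots were made in Python 3.11.15 (matplotlib 3.10.9).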

Additional observations from a re-analysis of the deposited data

How the results depend on the processing

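Every setting but 1 left 0 members called by limma, as did the methods' t-test after adjustment, with 23 members at its unadjusted p under 0.05. The deposited values without normalization called 1 member, Dhrs7 (-0.90), and moved the median difference of members to -0.18, beside -0.22 for all genes. Members at an unadjusted p under 0.05 numbered 21 to 36 under all settings, with 30 in the main one, where all genes gave 6.81%. Members past the fold limits fell to 9 with an offset of 9.2 added before log2 and to 9 without probe sets below the 40th percentile. That filter takes out the dimmest probe sets, and 27 of the 31 members past the limits in the main setting were dim. The shares of all genes under the other settings are not given beside these counts, so the counts are not set against a background. Leaving out 1 array gave 47 members without overlap (without A/J replicate 1, where all genes gave 21.1%) to 59 (without A/J replicate 3, 24.2%), since fewer arrays overlap less often. Prkd1 moved between -0.30 and -1.80. Of the 762 values of 51 named genes under other settings 723 kept their direction and side of the threshold, 38 reversed and 1 passed the threshold. On deposited values Aldh6a1 was at -0.06, G2e3 at -0.02, Mnat1 at -0.18, Ppm1a at -0.20, Psma3 at -0.11, Smoc1 at -0.16, Srsf5 at -0.09, Synj2bp at -0.14 and Trmt5 at -0.02. With probe sets averaged by gene Arf6 was at -0.24, Cfl2 at -0.09, Churc1 at 0.03, Dhrs7 at 0.11, Exd2 at 0.20, G2e3 at -0.35, Jkamp at -0.02, Ppm1a at -0.05, Syne2 at -0.50 and Synj2bp at -0.09. With arrays centred on their medians Churc1 was at 0.02, Exd2 at 0.01 and Rps29 at 0.03, and with 1 trimmed mean Rps29 was at 0.00. Leaving out 1 array gave -0.08 to 0.18 for Aldh6a1, -0.07 to 0.09 for Churc1, -0.20 to 0.16 for Exd2, -0.19 to 0.22 for Mnat1, -0.02 to 0.04 for Ppm1a, -0.03 to 0.09 for Psma3, -0.04 to 0.15 for Smoc1, -0.06 to 0.09 for Synj2bp and -0.85 to 0.09 for Trim9. The cause of these reversals was not tested. Arrays of the same replicate number had correlations of deviations of -0.0565, 0.0892 and 0.156, and those of different number ranged from -0.227 to 0.148. These few values cannot settle whether the arrays were paired. A replicate block gave 34 members at an unadjusted p under 0.05 and 0 called.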
